A study of Mus musculus with 6 samples.

Results

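Cyclic nucleotide phosphodiesterases are the enzymes that hydrolyse the second messengers cAMP and cGMP. The 10 genes described here are Pde4a, Pde4b, Pde4d, Pde7a, Pde8a, Pde1a, Pde1b, Pde3a, Pde10a and Pde5a, taken by gene symbol from the 16000 genes of the deposited count table. All 10 were found. RNA was sequenced from NIH3T3 cells, a fibroblast line established from mouse embryos, in 3 libraries labelled RAI16 KO (knockout, KO below) and 3 libraries labelled wild type (WT below). All 6 were kept under serum starvation, so no group holds serum-fed cells. How the knockout was made, and whether its libraries come from 1 clone or several, is not given in the labels. Nor do the labels say whether replicates were grown separately, so the p-values below measure only how these libraries vary, and that variation may be technical.

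Libraries held 16741607 to 18368760 counts. The targeted gene, listed as Fam160b2, had 410, 394 and 390 counts in KO libraries and 440, 375 and 411 counts in WT libraries. Its log2 fold change of -0.12 ± 0.075 (SE) did not pass the test (edgeR adjusted p = 0.184). With the lesion unknown, the summed transcript count of this gene does not check the knockout label. KO replicate 2 stood apart from the other KO libraries: a chi-square statistic over genes, per degree of freedom, was 29.3 and 27.2 against KO replicates 1 and 3, which gave 1.72 against each other, while WT pairs gave 1.91 to 2.27. Values without KO replicate 2 are given for some genes only. Others shifted too, such as Pde5a, whose log2 fold change went from 3.73 to 3.94. Without this library 6 members were called (adjusted p under 0.05) higher and 3 lower, against 5 and 3 with all libraries. The gain was Pde7a. Over all tested genes, 3646 were called higher and 3490 lower with all libraries, and 4350 and 4236 without KO replicate 2. Of 12 fibroblast markers, 11 passed the low-count filter, 5 were called higher and 4 lower, against 30.5% higher and 29.2% lower over all tested genes. Their summed level was 19900 to 23200 CPM (counts scaled to the library total after TMM normalisation) in KO and 24900 to 25400 CPM in WT libraries. Fn1 dominates this sum, at 10200, 6950 and 10400 CPM in KO and 13800, 14300 and 13900 CPM in WT libraries. The sum therefore gives no common direction: Col1a1, Col1a2, Col5a1, Thy1 and Vim were called higher, and Col3a1, Pdgfrb, Fn1 and Ddr2 lower. Fap had 0 to 2 counts per library.

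cAMP is made by adenylyl cyclases downstream of Gs-coupled receptors and acts mainly through protein kinase A, whereas cGMP is made by guanylyl cyclases and acts mainly through protein kinase G. Phosphodiesterases end both signals and, because many are tethered to scaffolds, they also confine cAMP to small regions of a cell. The families differ in substrate: PDE4, PDE7 and PDE8 hydrolyse cAMP, PDE5 hydrolyses cGMP, and PDE1, PDE3 and PDE10 hydrolyse both. In fibroblasts, as in most cells of the body, PDE4 enzymes carry much of the cAMP hydrolysis and are the targets of rolipram and roflumilast.

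What the 10 members share is the catalytic domain, which holds 2 metal ions through histidine and aspartate side chains. The coding stretch of 36 bases around the family's signature motif is printed below for each member, 5′ to 3′, because it shows at a glance how alike the members are in the part that defines the family. Capitals mark the codons of the histidine, the aspartate and the histidine of the motif. The stretches were read from GENCODE vM21 transcripts (build GRCm38), on chromosomes 9, 4 and 13 for Pde4a, Pde4b and Pde4d, 3 and 7 for Pde7a and Pde8a, 2 and 15 for Pde1a and Pde1b, 6 and 17 for Pde3a and Pde10a, and 3 for Pde5a.
Pde4a: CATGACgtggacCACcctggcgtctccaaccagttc
Pde4b: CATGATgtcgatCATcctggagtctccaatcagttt
Pde4d: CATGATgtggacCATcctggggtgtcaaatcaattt
Pde7a: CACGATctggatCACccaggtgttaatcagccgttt
Pde8a: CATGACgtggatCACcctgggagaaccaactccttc
Pde1a: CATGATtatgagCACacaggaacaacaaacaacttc
Pde1b: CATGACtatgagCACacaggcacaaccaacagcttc
Pde3a: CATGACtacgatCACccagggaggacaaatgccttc
Pde10a: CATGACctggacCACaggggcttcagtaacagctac
Pde5a: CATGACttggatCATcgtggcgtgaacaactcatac

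Within this stretch Pde4d and Pde4a have the same base as Pde4b at 30 and 29 of the 36 positions, and Pde1a has the same base as Pde1b at 32. Pde10a matches Pde4b at 17 positions. Over the whole coding sequences the longest identical run was 32 bases between Pde4b and Pde4d, 29 between Pde4a and Pde4b, and 18 between Pde1a and Pde1b. How reads that match more than 1 gene were treated was not stated in the sources used.

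The cAMP-specific PDE4 genes moved in opposite directions: Pde4b and Pde4d rose in KO cells by 3.1-fold and 2.15-fold, and Pde4a fell to 0.754 of the WT level. Each of the 3 genes had KO and WT levels that did not overlap. PDE4 enzymes carry regulatory regions in front of the catalytic domain through which protein kinase A activates the long forms. Reads from a whole population of cells were counted here, so fewer cells expressing a gene and less RNA per cell cannot be told apart for any member.

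Pde4b, which cAMP is known to induce and which takes part in inflammatory signalling, was at 102, 86.4 and 103 CPM in KO libraries and at 30.6, 30.5 and 32.9 CPM in WT libraries. The lowest KO library, replicate 2, lay far above the highest WT library. The log2 fold change was 1.63 ± 0.082 (SE; 95% interval 1.45 to 1.82; edgeR adjusted p = 6.72e-07). It was 1.71 without KO replicate 2.

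Pde4d, whose long forms bind A-kinase anchoring proteins and beta-arrestins, was at 83.1, 68.7 and 78.2 CPM in KO libraries and at 35.4, 34.1 and 37.3 CPM in WT libraries. All 3 KO libraries exceeded all WT libraries. Its log2 fold change was 1.11 ± 0.081 (SE; 95% interval 0.92 to 1.29; edgeR adjusted p = 6.17e-06).

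Pde4a, a widely expressed cAMP phosphodiesterase with several long forms, was at 51.2, 45.8 and 45.1 CPM in KO libraries and at 63.2, 65.2 and 60.4 CPM in WT libraries. Here every KO library lay below every WT library. The change was small beside those of Pde4b and Pde4d: the log2 fold change was -0.41 ± 0.069 (SE; 95% interval -0.56 to -0.25; edgeR adjusted p = 0.000832).

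**Figure D1:**
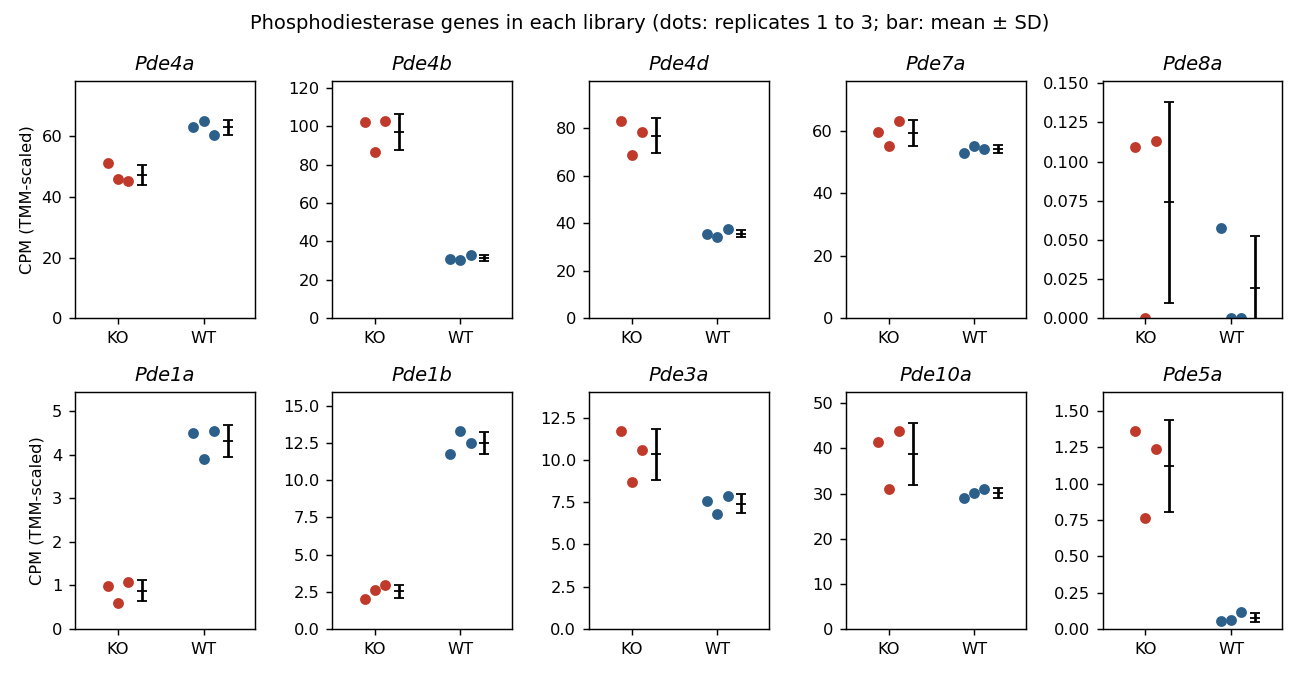
TMM-scaled CPM of the 10 phosphodiesterase genes (vertical axes, each from 0) in the 3 KO and 3 WT libraries (dots, replicates 1 to 3 from left to right), with mean ± SD as bars beside them. Pde4b and Pde4d sit higher and Pde1a and Pde1b lower in every KO library, while for Pde7a and Pde10a the lowest KO library, replicate 2, lies among the WT libraries.

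These opposite changes altered the make-up of PDE4 messenger RNA. Levels of different genes were compared as FPKM, the fragment count divided by a length assigned to the gene and by library size. On the deposited FPKM, Pde4a made up 51.3 ± 2.24% of the PDE4 sum in KO cells and 79.7 ± 1.31% in WT cells (SD, n = 3 each). The share of Pde4b was 37.2 ± 1.94% in KO and 14.1 ± 0.898% in WT cells. That of Pde4d was 11.5 ± 0.358% in KO and 6.23 ± 0.425% in WT cells. Pde4b and Pde4d together were at 0.952 ± 0.0863 of the Pde4a level in KO cells and at 0.255 ± 0.0208 of it in WT cells. None of these shares overlapped between groups. The total of the 3 genes was 12.6 ± 0.858 FPKM in KO and 10.7 ± 0.245 FPKM in WT cells, a ratio of 1.18.

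The shares depend on the length assigned to each gene. The length implied by the deposited counts and FPKM was 53.3 kb for Pde4d, 20.8 kb for Pde4b and 7.36 kb for Pde4a. The union of exons in GENCODE vM21 is 12, 10.6 and 7.66 kb for the same genes. With the GENCODE lengths, an alternative added after the data were seen, Pde4a made up 28.5 ± 1.73% of the PDE4 sum in KO and 58.1 ± 1.98% in WT cells, Pde4b 42.2 ± 1.48% in KO and 21.0 ± 0.962% in WT cells, and Pde4d 29.3 ± 0.488% in KO and 21.0 ± 1.05% in WT cells. The order within KO cells therefore depends on the lengths, with Pde4a leading on the deposited values and Pde4b on the GENCODE lengths. The PDE4 total on these lengths was 21.8 ± 1.66 FPKM in KO and 14.1 ± 0.0918 FPKM in WT cells, a ratio of 1.55, so the size of its difference depends on the lengths too. On either scale the share of Pde4a was lower in all 3 KO libraries than in any WT library. The fold change of a gene between groups does not depend on its length.

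**Figure D2:**
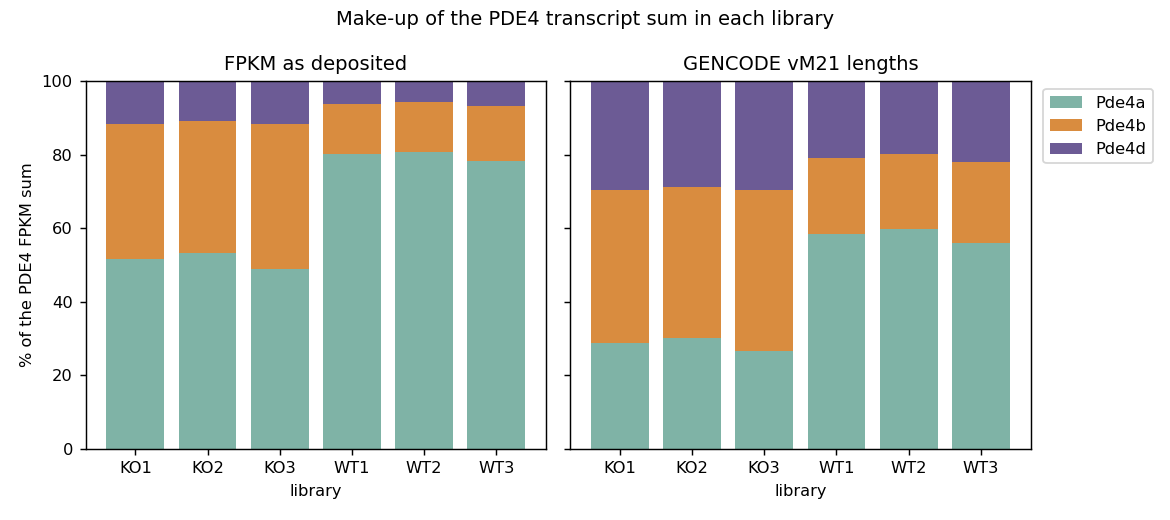
Share of Pde4a, Pde4b and Pde4d in the summed FPKM of the 3 genes (%), for each KO and WT library, with the FPKM as deposited (left) and with FPKM recomputed from GENCODE vM21 exon lengths (right). Pde4a takes 48.9% to 53.3% in KO and 78.2% to 80.8% in WT libraries on the deposited scale, and 26.6% to 30.1% in KO and 55.9% to 59.8% in WT libraries on the other.

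PDE4 genes use several start sites. GENCODE vM21 gives coding transcripts with 12 different starts for Pde4d, 9 for Pde4b and 3 for Pde4a, and gene-level counts sum over all of them. Promoter sequence is shown for the pair that rose together, Pde4b and Pde4d, and for the pair that fell together, Pde1a and Pde1b (described next). Each is the first window of its gene in RefSeq's promoter table (build GRCm38.p6), 250 bases up to the start, in the gene's direction. Capitals mark the core of the cAMP response element, TGACG or CGTCA on the other strand, the site bound by CREB. The windows lie at chr4:102421305-102421554 (+ strand, Pde4b), chr13:108653927-108654176 (+ strand, Pde4d), chr2:80129413-80129662 (- strand, Pde1a) and chr15:103502784-103503033 (+ strand, Pde1b).
Pde4b: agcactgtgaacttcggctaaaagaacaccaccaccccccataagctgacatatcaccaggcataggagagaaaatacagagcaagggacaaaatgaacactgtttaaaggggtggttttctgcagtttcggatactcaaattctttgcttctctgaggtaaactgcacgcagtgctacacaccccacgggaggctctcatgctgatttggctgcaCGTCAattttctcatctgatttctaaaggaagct
Pde4d: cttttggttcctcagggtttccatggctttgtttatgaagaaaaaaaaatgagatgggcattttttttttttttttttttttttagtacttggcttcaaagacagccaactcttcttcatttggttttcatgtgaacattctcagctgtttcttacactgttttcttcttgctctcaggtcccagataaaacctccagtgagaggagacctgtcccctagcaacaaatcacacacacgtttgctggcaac
Pde1a: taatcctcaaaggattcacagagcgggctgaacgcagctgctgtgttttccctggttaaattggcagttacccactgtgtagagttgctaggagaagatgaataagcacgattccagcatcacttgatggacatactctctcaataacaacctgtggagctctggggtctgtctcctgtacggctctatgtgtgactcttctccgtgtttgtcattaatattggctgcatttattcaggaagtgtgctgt
Pde1b: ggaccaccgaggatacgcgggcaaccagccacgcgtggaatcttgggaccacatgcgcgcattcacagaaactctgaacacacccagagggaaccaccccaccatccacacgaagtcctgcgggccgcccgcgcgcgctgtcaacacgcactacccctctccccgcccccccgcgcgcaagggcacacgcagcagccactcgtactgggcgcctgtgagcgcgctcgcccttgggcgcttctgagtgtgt

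The table holds 19 windows for 8 of the members, with 1 for Pde4d and 4 each for Pde4b and Pde1a. The core motif occurred in 4 of the 19 windows: the first of Pde4b, the second of Pde4a, the third of Pde1a and the only window of Pde8a. It occurs in 17.8% of all 32851 windows of the table at the same length. The full element TGACGTCA, which contains the core, occurred in 0 of the 19 and in 1.55% of all windows. Of the members with a core match Pde4b rose, Pde4a and Pde1a fell and Pde8a was not tested. Of those with windows and no match Pde4d, Pde5a and Pde10a rose and Pde1b fell. Which start the cells used was not measured.

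Pde7a and Pde8a complete the cAMP-specific members. Pde7a, a high-affinity enzyme that rolipram does not inhibit, was at 59.6, 55.0 and 63.2 CPM in KO libraries and at 52.7, 55.2 and 54.2 CPM in WT libraries. The groups overlapped, since KO replicate 2 lay within the WT range. The log2 fold change was 0.13 ± 0.066 (SE; 95% interval -0.02 to 0.28; edgeR adjusted p = 0.113). Without KO replicate 2 it was 0.19 and passed the test (edgeR adjusted p = 0.00145). Pde8a, which has a very high affinity for cAMP and resists the general inhibitor IBMX, had 2, 0 and 2 counts in KO libraries and 1, 0 and 0 counts in WT libraries. It did not pass the low-count filter, was not tested, and gets no fold change at this depth.

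The calcium- and calmodulin-activated PDE1 genes showed the largest falls among the members. The ratio of summed counts, KO over WT, was 0.204 for Pde1a (95% interval 0.146 to 0.279) and 0.201 for Pde1b (0.166 to 0.242). These intervals cover counting error only. PDE1 enzymes hydrolyse cAMP and cGMP when intracellular calcium rises.

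Pde1a had 18, 11 and 19 counts in KO libraries and 78, 65 and 79 counts in WT libraries. Its level was 0.882 ± 0.249 CPM in KO and 4.31 ± 0.362 CPM in WT cells (SD, n = 3 each), with no overlap. The log2 fold change was -2.28 ± 0.23 (SE; 95% interval -2.8 to -1.77; edgeR adjusted p = 3.68e-05), and -2.07 without KO replicate 2.

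Pde1b, the more abundant of the pair, had 37, 48 and 52 counts in KO libraries and 204, 222 and 217 counts in WT libraries. The levels were 2.52 ± 0.468 CPM in KO and 12.5 ± 0.76 CPM in WT cells (SD, n = 3 each). KO replicate 2 was not the lowest KO library here. The log2 fold change was -2.31 ± 0.15 (SE; 95% interval -2.64 to -1.98; edgeR adjusted p = 2.48e-06). On the deposited FPKM the PDE1 pair made up 3.56 ± 0.605% of the summed level of the 10 members in KO cells and 17.7 ± 0.4% in WT cells. On GENCODE lengths the share was 1.81 ± 0.284% in KO and 11.2 ± 0.199% in WT cells.

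The other members that accept both substrates, Pde3a and Pde10a, were moderately higher in KO cells. Pde3a encodes a phosphodiesterase whose cAMP hydrolysis is inhibited by cGMP, and it is known from heart, platelets and vascular smooth muscle. It was at 11.7, 8.72 and 10.6 CPM in KO libraries and at 7.57, 6.83 and 7.87 CPM in WT libraries. The lowest KO library, replicate 2, lay just above the highest WT library. The log2 fold change was 0.48 ± 0.13 (SE; 95% interval 0.18 to 0.78; edgeR adjusted p = 0.0122). The call was lost when WT replicate 2 was left out (0.42, edgeR adjusted p = 0.0539), and the log2 fold change was 0.59 without KO replicate 2.

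Pde10a, best known from the medium spiny neurons of the striatum, was at 41.5, 31.0 and 43.8 CPM in KO libraries and at 29.0, 30.2 and 31.1 CPM in WT libraries. KO replicate 2 lay inside the WT range and the other KO libraries lay above it. The log2 fold change of 0.37 ± 0.12 (SE; 95% interval 0.09 to 0.64) passed the test with all libraries (edgeR adjusted p = 0.0262). It passed in 7 of 14 alternative settings. Leaving out KO replicate 1, KO replicate 3 or any WT library ended the call, with edgeR adjusted p up to 0.0908, and without KO replicate 2 the log2 fold change was 0.50.

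Pde5a, the cGMP-specific member and the target of sildenafil, was rare in both groups and higher in KO cells. It had 25, 14 and 22 counts in KO libraries and 1, 1 and 2 counts in WT libraries. The summed counts stood at a ratio of 14.4, KO over WT, with a 95% counting interval of 5.33 to 54.4. The gene passed the low-count filter through the KO libraries alone, 3 of which and 0 WT libraries exceeded its cutoff of 0.567 CPM. The fitted log2 fold change of 3.73 ± 0.51 (SE; edgeR adjusted p = 0.000261) depends on the prior count of the model at such WT counts. Pde5a is known from smooth muscle. Of 8 smooth muscle markers 5 were tested, 4 were called higher and 0 lower, against 30.5% higher and 29.2% lower over all tested genes. The 4 include Synpo2 (log2 fold change 1.67, edgeR adjusted p = 0.00215), which lies among the 10 tested genes after Pde5a on chromosome 3. The summed level of the markers was 168 to 194 CPM in KO and 105 to 114 CPM in WT libraries. The defining markers Myh11, Cnn1 and Lmod1 had 1 to 8, 2 to 9 and 0 to 4 counts over the 6 libraries and did not pass the filter. Their summed counts were 18, 13 and 6 in KO and 7, 19 and 7 in WT libraries, so they shared no direction. The part of the shift of the tested markers in the level of Pde5a was not tested.

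**Figure D3:**
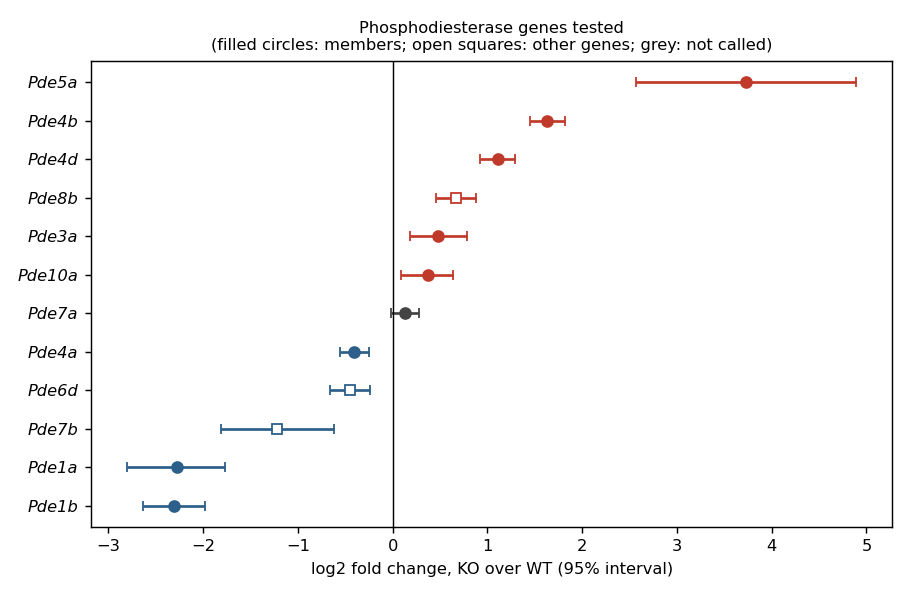
Log2 fold change, KO over WT, of the tested phosphodiesterase genes with 95% intervals. Filled circles are the members and open squares the other phosphodiesterase genes, in red for called higher, blue for called lower and grey for not called. The members run from -2.31 for Pde1b to 3.73 for Pde5a, and the interval of Pde7a alone spans 0.

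Of the 10 members, 9 passed the filter and were tested, 8 were called at an adjusted p under 0.05, 5 of them higher and 3 lower, and 1 was not called. Over all 11972 genes tested, 59.6% were called, 30.5% higher and 29.2% lower. Calls at 2-fold or more were made for 3 members upward (Pde4b, Pde4d, Pde5a) and 2 downward (Pde1a, Pde1b), against 4.32% and 6.53% of all tested genes. CPM did not overlap between the groups for 7 of the tested members and for 67.6% of all tested genes. The median log2 fold change was 0.37 over the tested members and 0.0028 over all tested genes. The members were chosen with earlier results of these data known, and Pde5a entered only through its high group, so these counts are a description of the members and no test was made over them. KO replicate 2 was the lowest KO library for 7 of the 9 tested members.

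Read per length, Pde4a and Pde7a were the most abundant members in both groups on the deposited FPKM. In KO cells Pde4a stood at 6.46 ± 0.462 and Pde7a at 6.31 ± 0.399 FPKM (SD, n = 3), with overlapping ranges. Pde4b followed at 4.69 ± 0.424 FPKM, clear of its neighbours in the order. Pde10a at 1.66 ± 0.283 and Pde4d at 1.44 ± 0.133 FPKM overlapped, as did Pde3a at 0.732 ± 0.103 and Pde1b at 0.663 ± 0.122 FPKM. Below them came Pde5a at 0.354 ± 0.0982, Pde1a at 0.134 ± 0.0371 and Pde8a at 0.0123 ± 0.0106 FPKM.

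In WT cells the order was Pde4a at 8.51 ± 0.332, Pde7a at 5.71 ± 0.137, Pde1b at 3.27 ± 0.201, Pde4b at 1.5 ± 0.0641 and Pde10a at 1.28 ± 0.0469 FPKM (SD, n = 3). None of these neighbours overlapped. Pde4d at 0.665 ± 0.0301 and Pde1a at 0.649 ± 0.0541 FPKM did, ahead of Pde3a at 0.522 ± 0.0372 FPKM. Pde5a at 0.0244 ± 0.0102 and Pde8a at 0.00319 ± 0.00553 FPKM were last. Pde1b thus held rank 7 in KO cells and rank 3 in WT cells on the deposited values. On GENCODE lengths it held rank 7 in KO cells and rank 6 in WT cells, where it overlapped Pde10a.

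**Figure D4:**
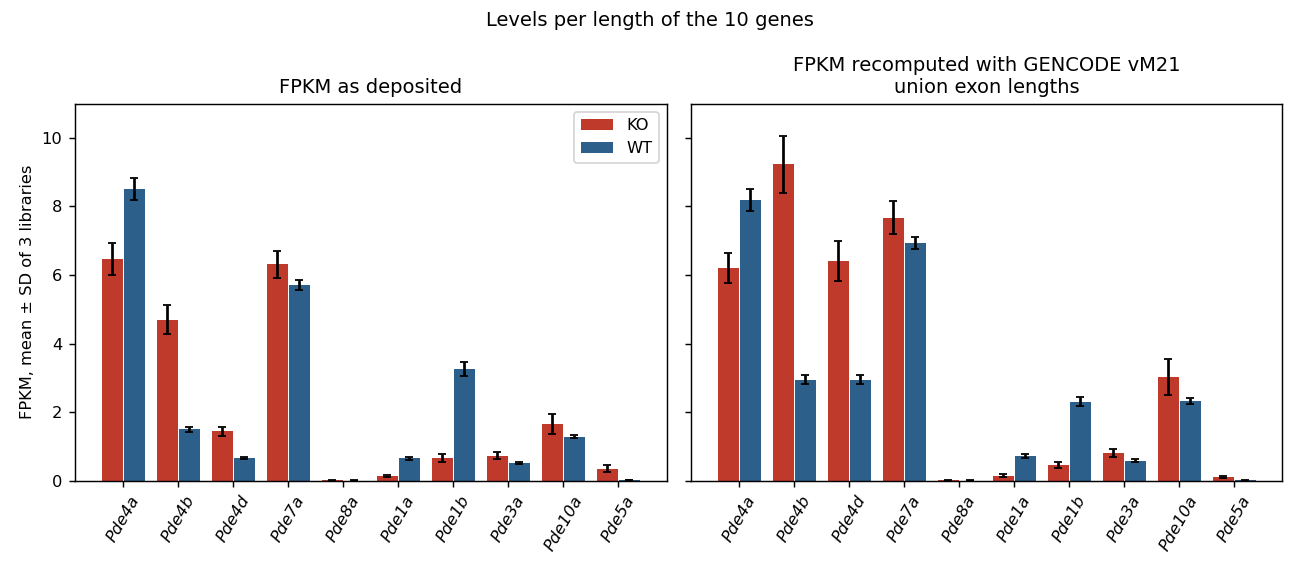
FPKM of the 10 genes (bars, mean ± SD of 3 libraries) in KO and WT cells, as deposited (left) and recomputed with GENCODE vM21 exon lengths (right). On the right, Pde4b leads in KO cells at 9.23 FPKM and Pde4d stands at 6.41 FPKM, while in WT cells both stand at 2.95 FPKM, below Pde4a at 8.18 FPKM.

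With GENCODE lengths 4 of the 10 members kept their rank in KO cells and 7 in WT cells. The deposited length was 4.44 times the GENCODE length for Pde4d, 1.97 times for Pde4b, 1.82 times for Pde10a and 0.322 times for Pde5a, against a median of 0.854 over 11716 genes with both lengths. Pde1b stood at 0.468 FPKM in KO and 2.31 FPKM in WT cells on the GENCODE lengths, and Pde10a at 3.03 FPKM in KO and 2.33 FPKM in WT cells.

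Summed by substrate, the cAMP-specific members reached 18.9 ± 1.12 FPKM in KO and 16.4 ± 0.329 FPKM in WT cells (SD, n = 3 each). The members that hydrolyse both nucleotides reached 3.19 ± 0.408 FPKM in KO and 5.72 ± 0.176 FPKM in WT cells. The groups did not overlap in either sum. All 10 together came to 22.5 ± 1.57 FPKM in KO and 22.1 ± 0.432 FPKM in WT cells, and these overlapped. With GENCODE lengths the total was 34.1 ± 2.67 FPKM in KO and 27.0 ± 0.366 FPKM in WT cells and did not overlap. Whether the groups overlap in the summed level thus depends on the lengths and, on the deposited scale, on KO replicate 2. The share of cAMP-specific members in the total was 84.3 ± 1.27% in KO and 74.0 ± 0.587% in WT cells. On GENCODE lengths it was 86.6 ± 1.08% in KO and 78.0 ± 0.411% in WT cells. These sums were not tested: with 3 libraries a group, an exact two-sided permutation test cannot give a p below 0.1.

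Of 14 other phosphodiesterase genes, 13 were in the tables, and Pde9a was not analysed here. Pde8b, Pde6d and Pde7b passed the filter, and all 3 were called here and in each of 14 alternative settings. Pde8b, the sister gene of Pde8a, was at 16.7, 18.6 and 17.3 CPM in KO libraries and at 12, 10.7 and 10.5 CPM in WT libraries, a log2 fold change of 0.67 ± 0.092 (SE; edgeR adjusted p = 0.000274). Every KO library lay above every WT library.

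Pde7b, the sister gene of Pde7a, had 9, 13 and 12 counts in KO libraries and 24, 25 and 26 counts in WT libraries, a log2 fold change of -1.22 ± 0.26 (SE; edgeR adjusted p = 0.00342). Pde6d, which despite its name encodes a carrier of prenylated proteins and not a catalytic subunit, was at 31.3, 40.0 and 32.4 CPM in KO libraries and at 46.4, 47.8 and 47.2 CPM in WT libraries. Its log2 fold change was -0.45 ± 0.093 (SE; edgeR adjusted p = 0.00279). Among the untested genes Pde2a had 12, 8 and 10 counts in KO and 10, 9 and 4 counts in WT libraries, and Pde6h had 5, 5 and 4 counts in KO and 0, 1 and 1 counts in WT libraries. Pde1c, Pde3b, Pde4c, Pde6a, Pde6b, Pde6c and Pde11a had 0 to 3 counts in each library, and Pde6g had 1 to 7.

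The enzymes that make the messengers stand opposite the phosphodiesterases. Of 8 tested adenylyl and guanylyl cyclase genes 1 was called higher, 3 lower and 4 not called, a share called of 50% against 59.6% of all genes, with a median log2 fold change of 0.04. Adcy1, a calcium- and calmodulin-stimulated adenylyl cyclase, was at 38.9, 24.7 and 40.5 CPM in KO libraries and at 55.1, 57.7 and 60.1 CPM in WT libraries. Its log2 fold change was -0.73 ± 0.16 (SE; edgeR adjusted p = 0.00319), and -0.54 without KO replicate 2. Gucy1a2, a subunit of the nitric oxide receptor, had 26, 2 and 22 counts in KO libraries and 50, 58 and 45 counts in WT libraries. Its log2 fold change of -1.69 ± 0.47 (SE; edgeR adjusted p = 0.0129) was -1.16 without KO replicate 2, and the call was lost in DESeq2 (adjusted p = 0.0723) and in edgeR without WT replicate 2 (adjusted p = 0.0508).

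Among 12 tested cAMP and cGMP effectors 3 were called higher and 6 lower (75.0% called, median log2 fold change -0.09). The genes of the main protein kinase A catalytic subunits moved apart. Prkaca was at 102 ± 5.79 CPM in KO and 67.5 ± 1.73 CPM in WT cells (SD, n = 3 each), and its log2 fold change was 0.59 ± 0.062 (SE; edgeR adjusted p = 4.91e-05). Prkacb was at 127 ± 12.5 CPM in KO and 231 ± 0.919 CPM in WT cells, a log2 fold change of -0.86 ± 0.076 (SE; edgeR adjusted p = 1.82e-05).

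Prkg1, the protein kinase G gene whose product phosphorylates and activates PDE5, had 17, 5 and 22 counts in KO libraries and 69, 92 and 78 counts in WT libraries. Its log2 fold change was -2.52 ± 0.35 (SE; edgeR adjusted p = 0.000273), opposite in sign to that of Pde5a, and -2.10 without KO replicate 2.

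Of 22 tested partners and regulators of phosphodiesterases 7 were called higher and 5 lower (54.5% called, median -0.03). Akap6, an anchoring protein that tethers PDE4D together with protein kinase A in muscle cells, had 27, 22 and 19 counts in KO libraries and 74, 87 and 67 counts in WT libraries, a log2 fold change of -1.83 ± 0.21 (SE; edgeR adjusted p = 8.98e-05). Abcc4, a transporter that exports cyclic nucleotides, was at 18.6 ± 1.56 CPM in KO and 41.6 ± 2.44 CPM in WT cells, a log2 fold change of -1.16 ± 0.084 (SE; edgeR adjusted p = 5.52e-06). Arrb1, a beta-arrestin that brings PDE4D to activated receptors, rose by 0.67 ± 0.14 and Akap12, a kinase scaffold at the plasma membrane, by 0.60 ± 0.10 on the log2 scale (SE; edgeR adjusted p = 0.00317 and 0.00102).

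Of 20 tested genes of the CREB family and genes known to be induced by cAMP, 9 were called higher and 4 lower (65.0% called, median 0.15). Dusp1, a phosphatase of MAP kinases, was at 112 ± 7.34 CPM in KO and 26.6 ± 1.19 CPM in WT cells (log2 fold change 2.07 ± 0.071 SE; edgeR adjusted p = 8.64e-08). Nr4a1, an immediate early nuclear receptor gene, was at 73.4 ± 3.67 CPM in KO and 34.0 ± 1.74 CPM in WT cells (1.11 ± 0.067 SE; edgeR adjusted p = 1.94e-06). Ppargc1a, a coactivator of mitochondrial genes that cAMP induces in liver and fat, went the other way at 1.74, 1.42 and 1.24 CPM in KO libraries and 10.5, 9.65 and 9.82 CPM in WT libraries (-2.76 ± 0.15 SE; edgeR adjusted p = 1.13e-06). Creb1 itself was at 51.2 ± 3.63 CPM in KO and 83.3 ± 1.63 CPM in WT cells (-0.70 ± 0.066 SE; edgeR adjusted p = 2.58e-05). Dusp1 and Nr4a1 also respond to signals other than cAMP, and cAMP was not measured.

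Among 14 tested genes of Gs and Gi coupling 5 were called higher and 5 lower (71.4% called, median 0.0). Adora2b, a Gs-coupled adenosine receptor, was at 17.9 ± 0.0639 CPM in KO and 7.63 ± 0.556 CPM in WT cells, a log2 fold change of 1.23 ± 0.09 (SE; edgeR adjusted p = 6.17e-06). Of the genes for calcitonin family receptors, Ramp3, an accessory subunit, rose by 0.92 ± 0.093 and the receptor gene Calcrl, with 39, 37 and 43 counts in KO and 93, 82 and 85 counts in WT libraries, fell by 1.21 on the log2 scale (edgeR adjusted p = 4.05e-05 and 0.000164). Gnal, which encodes a Gs-like alpha subunit, had 14, 13 and 12 counts in KO libraries and 31, 26 and 41 counts in WT libraries, a log2 fold change of -1.41 ± 0.27 (SE; edgeR adjusted p = 0.00164).

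The members lie at separate places in the genome. Pde5a and Pde7a are both on chromosome 3, but the sets of neighbours described below have no gene in common for these 2. Tested genes were ordered along the chromosomes by RefSeq's table, with the build GRCm38.p6, which placed 11825 of the 11972. Up to 10 tested genes on each side were set beside each member. The medians of these neighbours ran from -0.39 around Pde8a to 0.21 around Pde7a on the log2 scale. Pde1a was the lowest gene but 1 of its window, where 5 of 20 neighbours were called higher and 6 lower with a median of 0.09. At 2-fold or more, 0 of the 20 were called higher and 4 lower, against 4.32% and 6.53% of all tested genes. Calcrl, described above, was among the 4. Pde5a was the highest gene of its window, where 6 of 20 were called higher and 7 lower with a median of 0.02.

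Some members have a strongly changed gene beside them. Pde4b lies between Lepr, the leptin receptor gene, at a log2 fold change of 1.90 (edgeR adjusted p = 0.00193), and Sgip1, an endocytic adaptor gene, at -2.64 (0.00158). Pde4d lies between Depdc1b at 0.47 (0.0416) and Rab3c, a vesicle-associated GTPase gene, at 2.27 (1.87e-07). Pde1b has tested neighbours on 1 side only, the nearest being Nckap1l at -3.70 (1.64e-05), and the 10 genes of that side had a median of -0.28. Over all tested genes 30.5% were called higher and 29.2% lower. Around Pde8a, 0 of 20 neighbours were called higher and 12 lower, with a median of -0.39. Around Pde3a, which rose, 1 of 20 neighbours was called higher and 11 lower, with a median of -0.20. Around Pde7a, 10 of 20 were called higher and 3 lower.

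**Figure D5:**
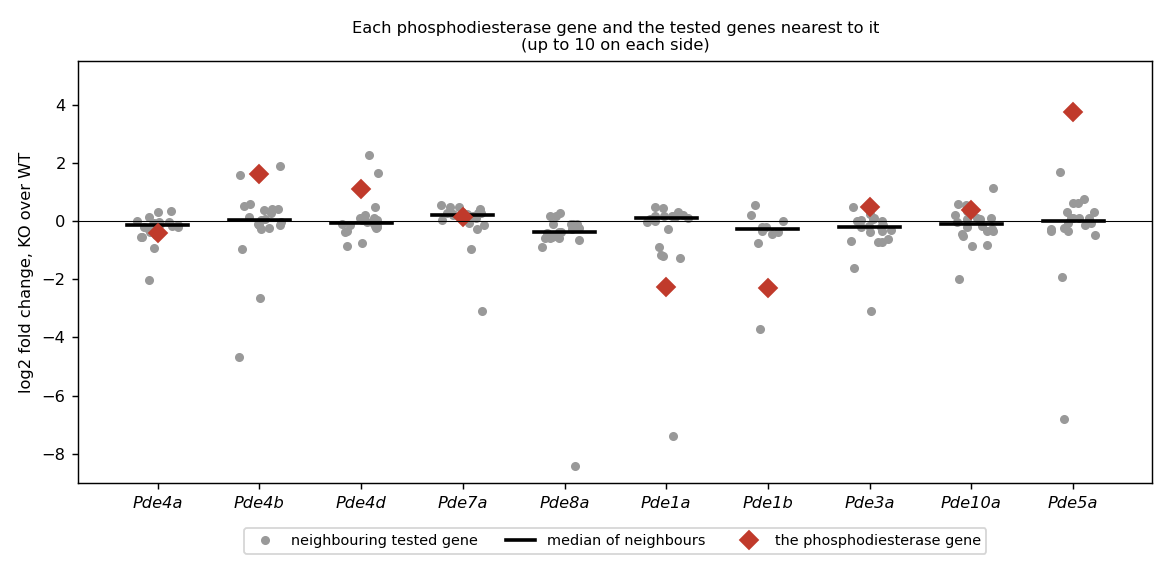
Log2 fold change, KO over WT, of each phosphodiesterase gene (diamonds), of up to 10 tested genes on each side of it (grey dots) and the median of those neighbours (bars). The medians lie between -0.39 and 0.21, while Pde4b, Pde4d, Pde1a, Pde1b and Pde5a lie at 1.63, 1.11, -2.28, -2.31 and 3.73. Pde8a was not tested and has no diamond.

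Genes whose profile over the 6 libraries was nearest to that of the member with the largest rise and to that of the member with the largest fall were found by the root mean square difference of log2 CPM, centred on each gene's mean. For Pde5a these were Thbs1, Rhox5 and Vnn1, at differences of 0.34, 0.385 and 0.39. The Pde5a profile rests on 1, 1 and 2 counts in WT libraries and shifts with the constant added before taking logarithms, so this ranking is uncertain. Thbs1, which encodes the matrix protein thrombospondin-1, stood at 3480 ± 539 CPM in KO and 208 ± 8.81 CPM in WT cells. For Pde1b they were LOC100041057, Angpt1 and Ptprm, at 0.0948, 0.106 and 0.11. Angpt1, which encodes a ligand of the TIE2 receptor, stood at 3.99 ± 0.993 CPM in KO and 21.2 ± 1.9 CPM in WT cells, and Ptprm, a receptor tyrosine phosphatase gene, at 8.69 ± 1.4 CPM in KO and 43.2 ± 0.586 CPM in WT cells. With 6 libraries in 2 groups, a small difference mostly says that these genes had a similar fold change.

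Neural, endothelial, epithelial and leukocyte markers were low beside the fibroblast markers, though not beside every member. The sums cover the listed genes that were found: 7 of 10 neural, 9 of 9 endothelial, 6 of 10 epithelial and 8 of 10 leukocyte markers. The shares called over all tested genes were 30.5% higher and 29.2% lower. The summed level of 7 neural markers was 5.18 to 7.54 CPM in KO and 18.7 to 20.7 CPM in WT libraries. Of 3 tested, Map2 and Syp were called lower. Map2 alone was at 12.1, 12.6 and 14.8 CPM in WT libraries, a level like that of Pde1b. Syp passed the filter through the WT libraries alone, with 0 KO and 3 WT libraries over the cutoff. It was called in 5 of 13 alternative settings. Rbfox3 and Sox10 had at most 2 counts per library. Endothelial markers summed to 4.61 to 7.63 CPM in KO and 2.36 to 2.94 CPM in WT libraries (1 of 2 tested called higher, Cdh5). Cdh5 passed the filter through the KO libraries alone, with 3 KO and 0 WT libraries over the cutoff. Epithelial markers summed to 4.67 to 5.94 CPM in KO and 2.04 to 2.53 CPM in WT libraries (1 of 1 called higher, Krt8), and leukocyte markers to 6.42 to 8.39 CPM in KO and 4.51 to 5.11 CPM in WT libraries (2 of 2 called higher). The part of these shifts in the levels of the members was not tested.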

How the data were processed

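The deposited counts are whole reads per gene and the deposited FPKM equals count over length and library total, with a length per gene derived here. The submitters' processing notes name build GRCm39 and the tools HTSeq, DESeq, Cufflinks, Trimmomatic and HISAT2. Not given in the sources used here: settings, annotation and whether counting used strand. Without strand, overlapping antisense reads cannot be told apart. Counts were filtered with filterByExpr (minimum count 10), which kept genes holding at least 99.93% of each library, scaled by TMM and tested with edgeR 4.0.16 (quasi-likelihood, Benjamini-Hochberg over all 11972 genes, R 4.3.3). Standard errors are the log2 fold change over the square root of F, not estimates of the fit, and can be too small for low counts. Intervals on count ratios are exact binomial (95%) and cover counting error only. Alternatives used DESeq2 1.42.0 and limma 3.58.1. Members and gene lists were chosen with earlier results of these data known. Named genes are all members, all tested other phosphodiesterase genes, up to 4 called genes per list (largest absolute change, mean of at least 1 CPM, no overlap) and 3 most alike genes for 2 members (mean of at least 5 CPM). A gene that this rule names is not reported here. Neighbouring genes beside Pde4b, Pde4d and Pde1b were chosen for naming with their values in view. So were Calcrl and Synpo2 where they are named as neighbours. The procedure was run on simulated counts with the same dispersion for every gene, few changed genes and no outlying library. These settings differ from the data, so that run does not check the results here. Columns of other samples numbered 0.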

Additional observations from a re-analysis of the deposited data

How the results depend on the processing

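Across the 9 tested members, 116 of 125 alternative values kept the direction and the side of the threshold, 8 kept the direction and lost the call, 1 gained it and 0 reversed. The members called higher numbered 5, and 3 to 6 when single libraries were left out (3 without WT replicate 2, 6 without KO replicate 2). The members called lower numbered 3 throughout. Pde10a also missed the threshold in limma on log2(FPKM + 0.1) and log2(FPKM + 1), with adjusted p = 0.065 and 0.0533, and Pde5a was not tested where at least 1 CPM in 3 libraries was asked for. Of 392 alternative values of 28 other named genes 390 kept the direction and the side of the threshold. Most of these genes were named because they were called with large changes, so this was largely fixed by the choice. Over all genes, calls numbered 3024 to 4350 higher and 3023 to 4236 lower with single libraries left out, and 3396 higher and 3440 lower in DESeq2.

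The log2 ratio of summed FPKM was 0.21 for cAMP-specific members, against 0.61 on summed CPM and 0.49 on GENCODE lengths. For members with both substrates it was -0.84, against -0.05 and -0.41, and for all members 0.02, against 0.49 and 0.34. These differ because the genes are weighted by other lengths. With GENCODE lengths 4 of 10 ranks in KO cells were as deposited. With 5 neighbours a side the median around Pde4a was -0.05, around Pde4b 0.11, around Pde4d -0.11, around Pde5a 0.11 and around Pde7a 0.25.

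Same-numbered libraries gave correlations of -0.0725, -0.0938 and 0.0221 between their deviations, and libraries of different numbers gave -0.0804 to 0.11. With 3 libraries a group and KO replicate 2 apart from the others, this cannot settle whether equal numbers share a culture or day. The labels do not say so. With the replicate block 5 members were called higher and 3 lower, and 3371 genes were called higher and 3321 lower in all.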
